A study of Mus musculus with 30 samples.

Results

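The genes described here were those that the authors' values placed higher in both parts of the mouse bowel, the small and the large intestine, than in any other tissue of a 15-tissue panel. Only 1 array stood for the large intestine. With the log2 ratios given below some members, such as Lmod1, were higher in another tissue. For each probe of the authors' value table, the lower of the small intestine mean and the value of large intestine replicate 2 was compared with the highest mean among the other 13 tissues, and the difference was termed the gap. The 80 probes with the largest gap among those with a gene symbol in the study's probe lists were taken, out of 25030 probes in the table, with AA467197 left out by the rule. Only 5622 of the table's probes (22.5%) had a symbol here, and 349 probes without a symbol had a gap at least as large as that of the last member, so the 80 genes are a named subset of the gut pattern. The symbols came from lists that are held in part only. Chromosome 1 held 21 of the 80 members and 18.4% of all named probes of the table, and many names are RIKEN clone names such as 1810030J14Rik.

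The panel comprised stomach, small intestine, large intestine, liver, kidney, bladder, lung, heart, skeletal muscle, fat, bone, skin, eyes, cerebellum and brain cortex of untreated adult male C57BL/6 mice, 28 weeks old by the labels. The study's methods give an age of 30 weeks instead. No group carried a transgene, a deletion or a treatment. Tissue pieces were rinsed in buffered saline, frozen and homogenised whole, so each sample held epithelium, smooth muscle, nerve, blood vessels and immune cells together. In such bulk samples, fewer cells of a type and less RNA per cell cannot be told apart. Each tissue had 2 arrays (30 in all), from separate animals by the study's methods, although the series description lists fat and bone as unrepeated. On each array the tissue RNA was labelled with Cy3. The common reference, a pool of RNA from cultured mouse cell lines mixed with embryonic stem cell RNA, was labelled with Cy5. Unless stated otherwise, values are log2(tissue/reference), the Cy3 to Cy5 ratio after background correction and loess normalisation. A value of 0 means equal signal, and a difference of 1 between arrays is a factor of 2 in that ratio.

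The lining of the intestine is a single sheet of epithelial cells renewed from stem cells at the base of the crypts. Absorptive enterocytes carry a brush border of microvilli in which digestive enzymes are anchored, goblet cells secrete the mucus that keeps bacteria off the surface, and Paneth cells of the small intestine release antimicrobial proteins. Digestion and absorption of nutrients take place mainly in the small intestine, whereas the large intestine recovers water and salt under a thick mucus layer, so genes shared by both parts are of particular interest as markers of intestinal epithelium as such.

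To show what was measured and what lies before some of the genes described, 2 array probes and 3 promoters are given 5′ to 3′. The probes of Mptx1 (1810030J14Rik on the array), the gene with the largest gap, and of Gal3st2 are oligonucleotides of 60 bases, copied from the array files, with no part marked.

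Mptx1 probe: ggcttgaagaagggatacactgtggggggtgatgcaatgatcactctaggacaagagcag

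Gal3st2 probe: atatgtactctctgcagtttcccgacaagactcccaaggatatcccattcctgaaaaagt

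The promoters are the 250 bases before the RefSeq gene start in GRCm38.p6, which is not the build of the array design. Alpi lies at chr1:87101607-87101856 (minus strand), Gpr39 at chr1:125676746-125676995 (plus strand) and Sis at chr3:72967864-72968113 (minus strand). They were chosen because Alpi and Sis are brush border enzymes and because Alpi and Gpr39 hold, respectively, the letters CAAAGTCCA (an HNF4 motif) and an HNF1 motif (the capitals of the Gpr39 promoter, with any base at the seventh), both named for hepatocyte nuclear factors that also act in the gut. Capitals mark every match to a searched motif on either strand.

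Alpi promoter: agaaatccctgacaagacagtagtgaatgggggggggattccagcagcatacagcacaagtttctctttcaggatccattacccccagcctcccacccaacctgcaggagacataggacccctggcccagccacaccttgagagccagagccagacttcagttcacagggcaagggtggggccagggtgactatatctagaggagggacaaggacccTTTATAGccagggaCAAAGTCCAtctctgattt

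Gpr39 promoter: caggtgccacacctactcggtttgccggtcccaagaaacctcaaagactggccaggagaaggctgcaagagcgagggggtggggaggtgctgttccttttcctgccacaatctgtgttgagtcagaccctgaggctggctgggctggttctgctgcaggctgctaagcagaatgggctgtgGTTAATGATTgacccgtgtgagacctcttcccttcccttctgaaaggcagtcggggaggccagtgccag

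Sis promoter: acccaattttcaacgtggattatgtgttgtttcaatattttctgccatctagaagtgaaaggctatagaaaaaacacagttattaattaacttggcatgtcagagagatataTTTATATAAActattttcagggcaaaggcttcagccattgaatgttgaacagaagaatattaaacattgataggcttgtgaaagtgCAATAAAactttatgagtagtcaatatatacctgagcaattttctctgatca

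In Alpi the HNF4 letters began 19 bases before the start, and a match to TTTATNG (the CDX motif, named for the caudal type factors of the intestine) shared its position, 33 bases before the start, with a TATA box (TATAAA). In Gpr39 the HNF1 letters began 69 bases before the start. In Sis a CDX match began 52 bases before the start, and overlapping TATA box matches of both strands began 138 and 134 bases before it.

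The 4 intestinal arrays did not fall into clean pairs, and this precedes all results on the large intestine. Over the 21026 probes tested, large intestine replicate 1 had a Pearson correlation of 0.895 with small intestine replicate 2 and 0.884 with small intestine replicate 1, but 0.798 with its own replicate. The small intestine replicates correlated at 0.970. Small intestine replicate 2 and large intestine replicate 1 were hybridised on one slide, and large intestine replicate 2 on another slide that was scanned on another day. The part of these batches in the difference between the large intestine arrays was not tested. The rule used both small intestine arrays and large intestine replicate 2, so large intestine replicate 1 is the one intestinal array that did not choose the members. The comparison of small with large intestine by ratios is given with and without it for the members. For the genes of the lists described later it is given with it only.

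The gap, measured on the log10 scale of the value table, ranged from 0.121 to 1.49 with a median of 0.227, which is 1.68-fold. It was at least 2-fold for 26 members and at least 10-fold for 3. These values chose the members and are given as a description. The 3 last members inside the limit were 1810058N15Rik (0.127), Kctd5 (0.122) and Gm6194 (1700003N22Rik, 0.121), and the first genes outside were H2-Q6 (0610037M15Rik, 0.115), Tnfrsf11a (0.114) and 2010106C02Rik (0.112), so that the limit cuts a continuous series. Of the 80 members, 79 were well above background in Cy3 on both arrays of at least 1 tissue and entered the fit. The exception, 1700084E18Rik, was not well above background on any intestinal array. Its log2 ratios there were 0.12, -0.01, -0.07 and 0.06, below the 0.29 of the highest other array, so its place among the members rests on signal at background. For 5 members no array of the next highest tissue was well above background, and their gap depends on the background level there.

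**Figure D1:**
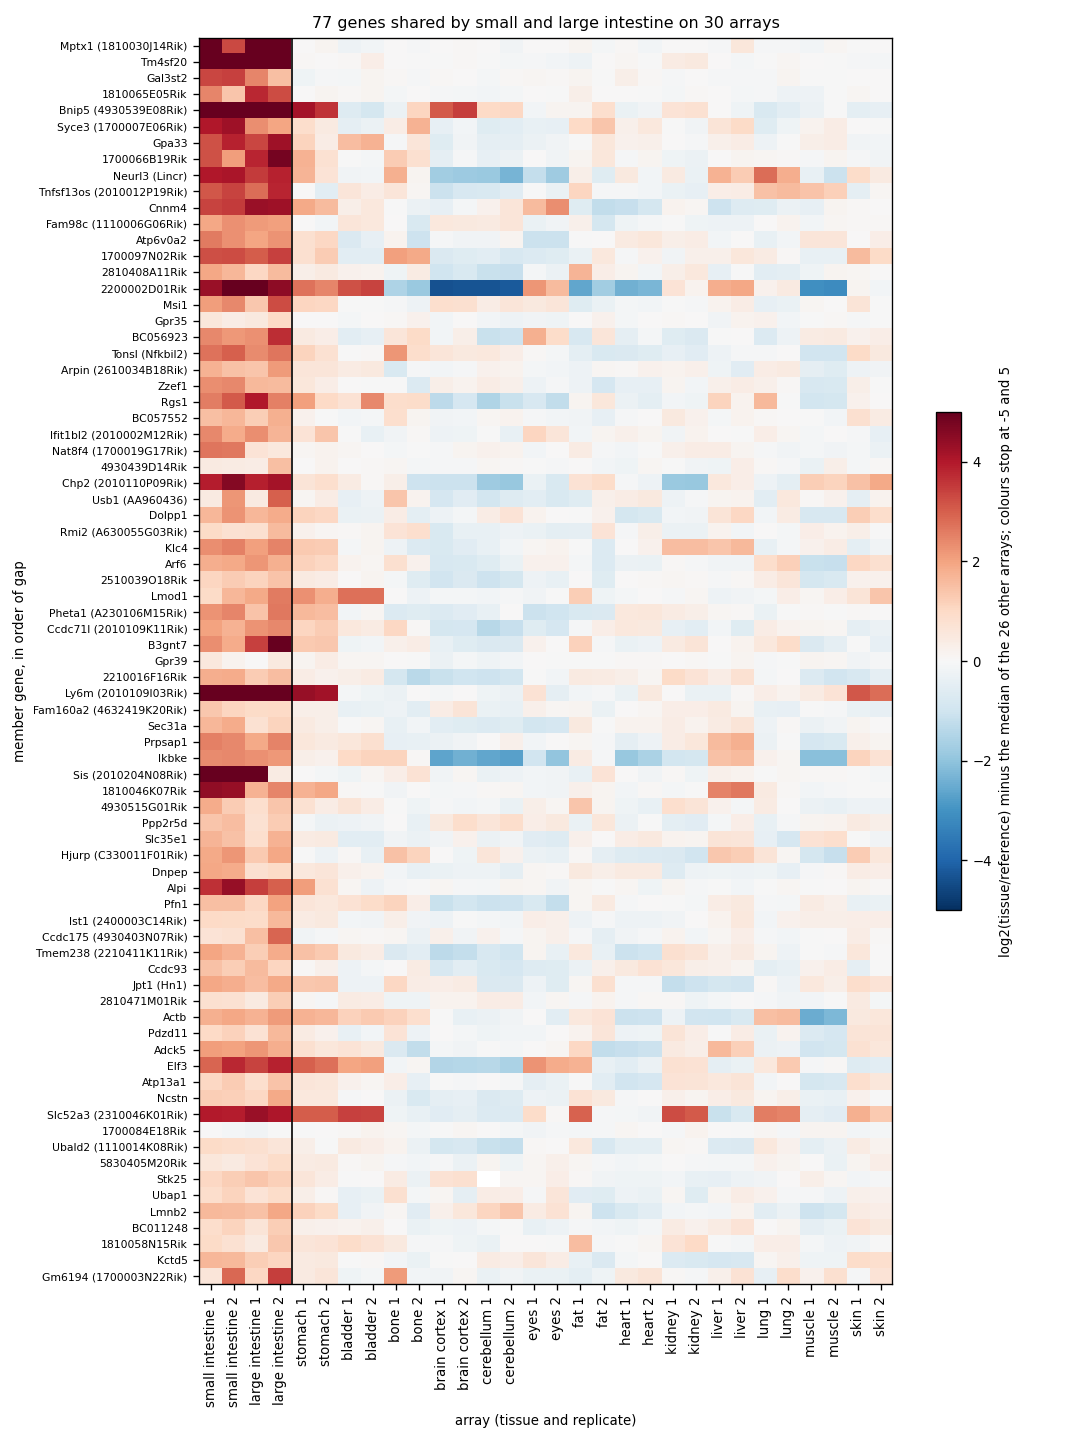
Heat map of 77 of the 80 members (rows, in order of gap) on the 30 arrays (columns). Colour gives log2(tissue/reference) minus the median of the 26 arrays of the other tissues, red for higher and blue for lower, and the 4 intestinal columns stand left of the black line. Sis is pale in large intestine 2 alone among the intestinal arrays, and Usb1 (AA960436) and Gm6194 are dark in replicate 2 of both parts of the intestine.

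Over the members, the median log2 ratio of a tissue mean was 1.65 in small intestine and 1.70 in large intestine. The next tissue was stomach with 0.30, followed by liver with 0.08, and the lowest were cortex with -0.26 and cerebellum with -0.28. In the limma fit the 4 intestinal arrays exceeded the other tissues by a median of 1.78 for the members and by -0.10 over all probes tested, and 71 of 79 members were called higher against 10.9% of all probes (9.83% were called lower). The rule used this contrast, so nothing is read from the count. Stomach, the other organ of the digestive tract in the panel, was the next highest tissue of the value table for 23 members (28.7%), liver for 11, bladder for 8 and kidney for 7. Among the 349 probes without a symbol that had as large a gap, stomach was next for 105 (30.1%).

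**Figure D2:**
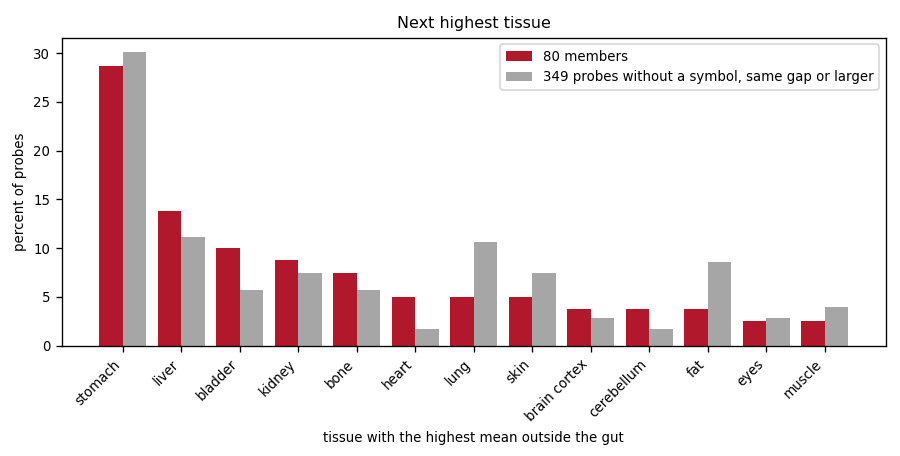
Percentage of probes (vertical axis) whose highest mean outside the intestine fell in each of 13 tissues (horizontal axis), for the 80 members (red) and for the 349 probes without a symbol and with a gap at least as large (grey). Stomach leads in both sets, with 28.7% and 30.1%.

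Of the 3 members of mucus and glycans, Mptx1 and Gal3st2 were among the 3 largest gaps, whereas the gap of B3gnt7 (0.228) was near the median. Mptx1, a mucosal pentraxin (a family of calcium-dependent proteins that bind bacterial and cell surfaces), had ratios of 5.74 and 3.36 in small intestine and 6.68 and 6.72 in large intestine. The other 26 arrays lay between -0.17 and 0.65, and 3 of them were well above background. Gal3st2, a sulfotransferase that adds sulfate to galactose on mucin glycans, had 3.36 and 3.43 in small intestine and 2.49 and 1.55 in large intestine. No other array was well above background for this gene, and their ratios lay between -0.18 and 0.31. B3gnt7, which extends the poly-lactosamine chains of glycoproteins, had -0.37 and -0.86 in small intestine and 0.73 and 3.47 in large intestine, with -1.36 as the highest other array. All 4 intestinal arrays were thus above all others for each of these 3 genes, but the order between the parts of the bowel differed.

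Apical enzymes, transporters and surface proteins made up 8 of the members, and their ratios over the other tissues are given as a description, since the rule chose on them. Tm4sf20, a tetraspan membrane protein, had 5.39 and 5.95 in small intestine and 5.50 and 5.05 in large intestine. It was not well above background on any of the 26 other arrays, where the ratio did not exceed 0.50. Gpa33, the A33 cell surface antigen of intestinal epithelium, had 2.44 and 3.13 in small intestine and 2.59 and 3.51 in large intestine, and the highest other value was 1.02 in bladder. Chp2 (2010110P09Rik), a calcium-binding cofactor of sodium/proton exchangers, had 6.04 and 6.69 against 6.00 and 6.27, with skin next at 4.0. The lowest of the 4 intestinal values lay above the highest other value for each of Tm4sf20, Gpa33 and Chp2.

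Cnnm4, a magnesium transporter of the basolateral membrane, had 3.88 and 4.0 in small intestine and 4.81 and 4.73 in large intestine, above 2.82 in eyes. Slc52a3 (2310046K01Rik), a riboflavin transporter, had 3.74 and 3.70 against 4.09 and 3.81, with bladder close below at 3.18. Ly6m (2010109I03Rik), a Ly6 family surface protein, had 5.36 and 5.77 against 5.32 and 5.81, and stomach reached 4.39. The set also held a pair of digestive enzymes of the brush border. Alpi, intestinal alkaline phosphatase, had 3.69 and 4.39 in small intestine and 3.47 and 3.03 in large intestine, with stomach replicate 1 at 2.13. Sis (2010204N08Rik), sucrase-isomaltase, had 9.02 and 9.51 in small intestine, 7.91 in large intestine replicate 1 and -0.46 in large intestine replicate 2. That last array was not well above background for Sis and lay within the range of the other tissues, from -1.25 to -0.15. The gap of Sis was thus set by a value at background, and a high level in large intestine was measured only on the array that the rule left out.

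**Figure D3:**
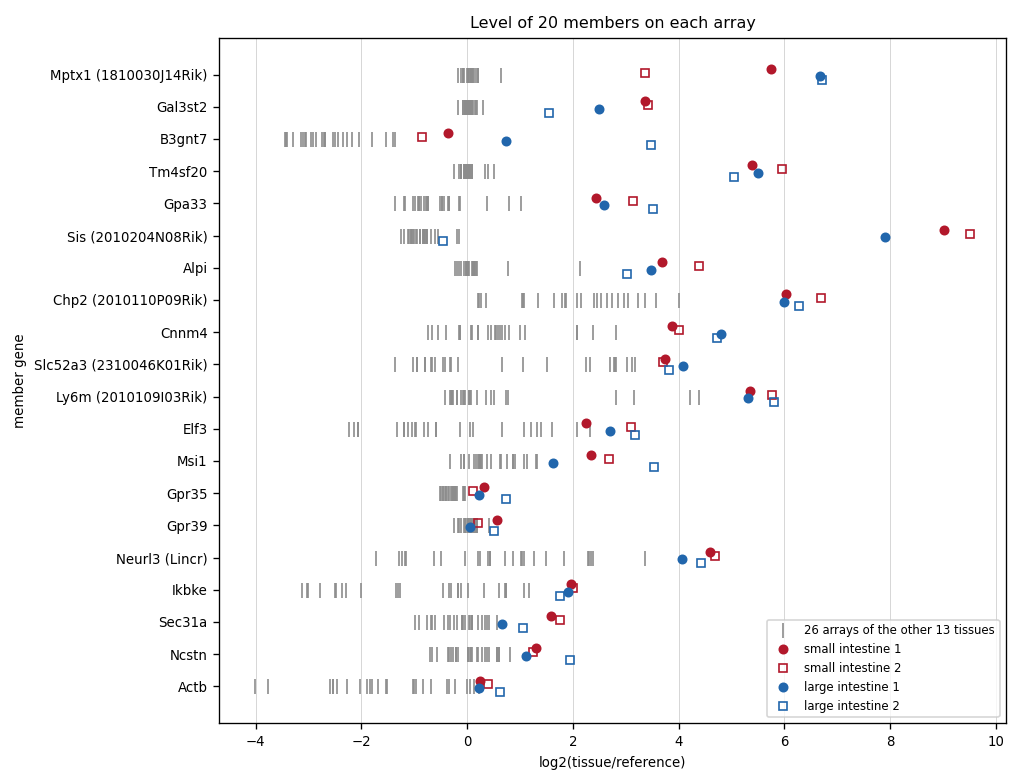
Level of 20 members (rows, grouped by role) as log2(tissue/reference) on the horizontal axis. Red points and squares are small intestine 1 and 2, blue points and squares are large intestine 1 and 2, and grey ticks are the 26 arrays of the other tissues. Sis in large intestine 2 lies among the grey ticks, and B3gnt7 in large intestine 2 stands apart from the 3 other intestinal arrays.

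Receptors and regulators of cell identity had smaller ratios. Elf3, an ETS family factor of epithelial cells, had 2.25 and 3.10 in small intestine and 2.71 and 3.17 in large intestine, and stomach replicate 1, at 2.32, lay above the lowest intestinal array. Msi1, an RNA-binding protein of crypt stem cells, had 2.35 and 2.68 in small intestine and 1.63 and 3.54 in large intestine, above 1.33 in stomach. The receptors Gpr35 (for kynurenic acid and related ligands) and Gpr39 (a zinc sensor) were near background. Gpr35 had 0.32, 0.12, 0.23 and 0.73 on the intestinal arrays against at most -0.04 elsewhere, and Gpr39 had 0.57, 0.21, 0.06 and 0.51 against 0.41 in stomach, which overlapped.

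Genes of the innate and antiviral response made up 5 of the members. Ikbke, a kinase of the interferon pathway, had 1.97, 2.00, 1.90 and 1.76, a range of the intestinal arrays narrower than their distance to liver at 1.18. Neurl3 (Lincr), a ubiquitin ligase, had 4.59, 4.68, 4.06 and 4.43, and lung came next with 3.36. Ifit1bl2 (2010002M12Rik), an interferon-induced protein, had 2.30, 1.76, 2.21 and 1.58, against 1.29 in stomach. Rgs1, a regulator of G protein signalling in lymphocytes, had 1.09, 1.58, 2.54 and 1.03, and bladder reached 0.93. The common leukocyte antigen Ptprc, not a member, read -0.63, -1.03, -1.12 and -2.35 on the intestinal arrays against a median of -2.08 elsewhere and 1.24 in lung. It exceeded the mean of the other tissues by 0.76 (limma adjusted p 0.00446), under the size required for a call. Like Rgs1 it was lower in large intestine replicate 2 than in replicate 1. From the lymphocyte and plasma cell list that holds Ptprc, Xcl1 read 0.31 on both large intestine arrays. Pigr, also of that list, went the other way, with 3.83 in replicate 1 and 5.06 in replicate 2. The part of leukocyte content in these values was not tested.

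Members of membrane protein processing and traffic were expressed in every tissue, with Cy3 well above background on all 30 arrays for each gene given here. Ncstn, nicastrin, a glycoprotein of the membrane, had 1.31, 1.25, 1.11 and 1.95 against at most 0.81 in fat. Sec31a, a coat protein of vesicles leaving the endoplasmic reticulum, had 1.59, 1.76, 0.67 and 1.05, with liver at 0.57. Atp6v0a2, a subunit of the proton pump of acidic organelles, had 3.04, 2.73, 2.44 and 2.70 against 1.48 in stomach. The differences from other tissues were thus shifts of a widely expressed gene rather than presence against absence, as they were for 52 of the 80 members, whose Cy3 was well above background on all 26 other arrays. Of all probes tested, 57.6% were so.

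Actin genes and genes of the cell cycle were also among the members. Actb, cytoplasmic beta-actin and a common reference gene in expression studies, had 0.25, 0.40, 0.22 and 0.62 in the intestine and between -4.01 and 0.22 elsewhere. The highest other value was stomach replicate 1, level with large intestine replicate 1. With log2 Cy3 alone, the highest other array (16.1) lay above both small intestine arrays (15.75 and 16.06) and large intestine replicate 1 (15.96). The mean Cy5 of the intestinal arrays less that of the others was -0.43. Pfn1, the actin monomer-binding profilin, had 0.04, 0.02, -0.42 and 0.54 against at most -0.37, so one intestinal array fell below bone replicate 1. Lmod1, a leiomodin that nucleates actin filaments in smooth muscle, had 1.27 and 1.97 in small intestine and 2.18 and 2.90 in large intestine, and bladder replicate 2 reached 3.07, above all of them. Its fellow muscle gene Des, from the smooth muscle list, had 2.05, 2.73, 2.82 and 2.69 and was not a member, since bone was higher. The part of muscle content in the values of Lmod1 was not tested. Tonsl (Nfkbil2), which repairs stalled replication forks, had 0.26, 0.55, -0.06 and 0.22 against at most -0.23, and Hjurp (C330011F01Rik), a chaperone of centromeric histone, had 1.47, 1.77, 0.85 and 1.51 against 1.04 in bone, so large intestine replicate 1 lay below one bone array.

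Many other members carry clone names or act in processes not tied to the intestine. The RIKEN gene 1810065E05Rik had 2.41 and 1.39 in small intestine and 3.74 and 3.25 in large intestine, with no other array above 0.27. Bnip5 (4930539E08Rik) had 4.81, 4.66, 4.74 and 4.84, with stomach replicate 1 at 2.59 and a median of -1.57 elsewhere. Syce3 (1700007E06Rik), a component of the meiotic synaptonemal complex, had 1.69 and 1.93 in small intestine but 0.00 and -0.32 in large intestine, against at most -0.57 elsewhere. Tnfsf13os (2010012P19Rik) had 3.59, 3.89, 3.29 and 4.32 with lung at 2.09. The RIKEN gene 1700066B19Rik had 2.31 and 1.23 in small intestine and 2.94 and 3.93 in large intestine against at most 0.88. The intestinal arrays of all 5 genes lay above every other array.

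In Usb1 (AA960436), an exonuclease that trims U6 RNA, and Gm6194 the replicates disagreed in the same way in both parts of the intestine. Usb1 had 0.12 and 1.88 in small intestine and 0.12 and 2.66 in large intestine, with 1.09 in bone replicate 1. Gm6194 had 0.82 and 3.09, then 1.24 and 3.68, with 2.33 in bone replicate 1. Replicate 2 was high and replicate 1 low in each tissue, so that replicate 1 of both parts fell within the range of the other tissues. On the 3 arrays of the rule, the 5 members with the smallest separation were these, Sis, Lmod1 and 1810058N15Rik. The intestinal arrays of 1810058N15Rik (1.03, 0.81, 0.52 and 1.42) lay below fat replicate 1 at 1.62.

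Large intestine replicate 1, which the rule did not use, was above all 26 arrays of the other tissues for 59 of the 80 members. The share of all probes tested was 4.23%. The rule did use these 26 arrays, since the gap subtracts the highest of their tissue means. Members were thus chosen low there, and nothing is read from the 59. Replicate 1 was above them for 35 of the 40 members with the larger gap and for 24 of the 40 with the smaller. A larger gap leaves more room above the 26 arrays, so nothing is read from this split. By role the count was 8 of 8 for apical and surface genes, 5 of 5 for innate genes, 3 of 3 for mucus and glycans, 7 of 9 for membrane processing and traffic, 3 of 4 for receptors and regulators, 3 of 5 for replication and nucleus, 2 of 5 for actin and smooth muscle and 28 of 41 for the rest. This array also held Sis and Cps1 nearer to small intestine than to its own replicate, and a part of small intestine RNA in these counts was not tested. The same count was 74 for small intestine replicate 1, 72 for small intestine replicate 2 and 74 for large intestine replicate 2, which the rule did use. The background shares of these arrays were 6.82%, 6.14% and 10.2%. All 4 intestinal arrays were above the 26 others for 56 members, against 1.86% of all probes, and the rule used 3 of these 4 arrays. Replicate 1 of the large intestine lay between replicate 2 and the small intestine mean for 21, against 45.8%. Large intestine replicate 1 lay below replicate 2 for 58 of the 80 members, a direction that selection on replicate 2 favours. Their median absolute difference was 0.50 for the members and 0.48 over all probes, compared with 0.21 and 0.18 between the small intestine replicates. The members furthest below replicate 2 were B3gnt7, Usb1 and Gm6194. Those furthest above were Sis (by 8.37, against signal at background in replicate 2), Rgs1 and Gal3st2.

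The reference channel was examined because a ratio depends on both dyes. Every array received the same reference RNA, so Cy5 of a probe is expected to be alike on all of them. For 65 of the 80 members Cy5 was well above background on at least 15 of the 30 arrays, against 77.4% of all probes tested. In some others Cy5 was above background on the intestinal arrays and on almost none of the rest. In Mptx1 it was well above background on 3 intestinal arrays and on none of the 26 others, in Tm4sf20 and Alpi on 4 and none, in Gal3st2 on 3 and none, and in 1810065E05Rik on 3 and 1. The Cy5 level followed Cy3. On the log2 scale of single-channel signals, Mptx1 had Cy3 values of 12.19 and 9.13 in small intestine and 17.35 and 17.10 in large intestine, while Cy5 was 8.17 and 6.48, then 12.60 and 12.08. The median Cy5 of the other 26 arrays was 6.34, so large intestine replicate 1 exceeded it by more than 6 log2 units in a channel that held the same RNA.

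**Figure D4:**
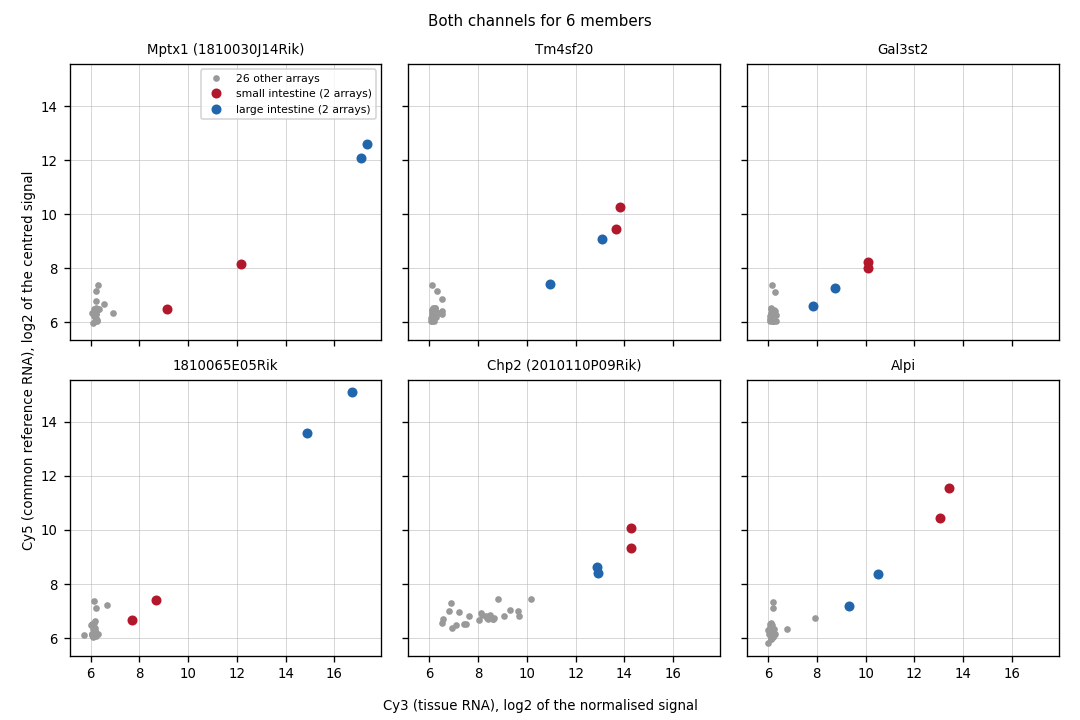
Cy5 (vertical axis, reference RNA, log2 of the array-centred signal) against Cy3 (horizontal axis, tissue RNA, log2 of the quantile-normalised signal) for 6 members, 1 panel each. Red points are the 2 small intestine arrays, blue points the 2 large intestine arrays and grey points the 26 others. Cy5 rises with Cy3 across the intestinal arrays in each panel, although all arrays carried one reference.

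The mean Cy5 signal of the 4 intestinal arrays exceeded that of the 26 others by over 0.5 for 18 of 79 members, against 2.62% of all probes, with a median of 0.19 for the members and 0.04 for all. The 26 arrays of the other tissues showed the same relation. For the 4757 probes whose Cy5 was well above background on fewer than 15 arrays, the median Cy5 on these 26 arrays was 6.53 where Cy3 lay between 6 and 7, 7.41 where it lay between 10 and 11, and 11.53 where it lay between 15 and 16. The cause was not tested. Where both channels move together, a ratio differs less between arrays than Cy3 does, and so does the authors' value, which adjusts Cy3 for the deviation of Cy5. The excess of Cy5 on the intestinal arrays was 4.33 for 1810065E05Rik, 3.45 for Mptx1, 3.09 for Alpi, 2.66 for Tm4sf20 and 2.28 for Chp2.

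The comparison of small with large intestine asks which of the shared genes are nevertheless unequal between them. A gene was called at an adjusted p under 0.05 and a difference of at least 1. With the ratios, 6 of 79 members were called higher in small intestine, against 6.33% of all probes, and 5 higher in large intestine, against 5.04%. In this fit both shares are near the background. The median difference of the members was 0.01 and that of all probes -0.01, the arrays of both parts did not overlap for 31 of 79 members, against 43.9% of all probes, and 58 of 79 members differed by less than 0.5, compared with 64.6% of all probes. The rule took the lower of both parts, which leaves out genes high in 1 part only and so favours small differences. It also used both small intestine arrays but only 1 large intestine array, so nothing is read from these shares. A member that missed the call is not shown to be equal, since the median SE was 0.26.

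Higher in small intestine were Sis by 5.54 (SE 1.42, limma adjusted p 0.011), 1810046K07Rik by 2.31 (SE 0.18, adjusted p 3.88e-08), Nat8f4 (1700019G17Rik, an N-acetyltransferase-like protein) by 2.04 (SE 0.14, adjusted p 1.23e-08), Syce3 by 1.98 (SE 0.30, adjusted p 0.000143), Gal3st2 by 1.38 (SE 0.20, adjusted p 9.12e-05) and the aminopeptidase Dnpep by 1.01 (SE 0.14, adjusted p 5.19e-05). In 1810046K07Rik the arrays read 4.40 and 4.35 in small intestine and 1.71 and 2.42 in large intestine, and liver replicate 2 with 2.64 was above both large intestine arrays. In Nat8f4 they read 2.66 and 2.64 against 0.70 and 0.52, and in Dnpep 2.05 and 1.98 against 0.93 and 1.08. The difference of Sis was 1.36 without large intestine replicate 2 and 9.73 without replicate 1, so its size is set by which array stands for the large intestine. The 9.73 is taken against signal at background in replicate 2 and is not a measured size. The call of Sis was lost without either small intestine array and with scan day as a fixed block. That of Dnpep was lost without small intestine replicate 1 or large intestine replicate 1. Dnpep and Gal3st2 also lost their call with median centring, and Syce3 and Dnpep with array weights per tissue.

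Higher in large intestine were B3gnt7, by 2.72 (SE 0.53, limma adjusted p 0.00157), Mptx1 by 2.15 (SE 0.43, adjusted p 0.00184), 1700066B19Rik by 1.67 (SE 0.34, adjusted p 0.00212), 1810065E05Rik by 1.59 (SE 0.22, adjusted p 7.17e-05) and Ccdc175 (4930403N07Rik, a coiled-coil protein) by 1.5 (SE 0.30, adjusted p 0.00195). Ccdc175 had 1.02 and 1.1 in small intestine and 1.84 and 3.27 in large intestine. With array weights per tissue only B3gnt7 of these 5 kept its call, and with median centring 1810065E05Rik lost its call. Single arrays decided several sizes and calls. B3gnt7 differed by 4.09 without large intestine replicate 1 and by 1.35 without replicate 2. Mptx1 differed by 3.33 without small intestine replicate 1 and by 0.96, under the limit, without replicate 2. Without large intestine replicate 2, Ccdc175 (0.78), 1700066B19Rik (1.17, limma adjusted p 0.0613) and Gal3st2 (0.91) were no longer called. Without large intestine replicate 1, 10 members were called higher in large intestine, among them Msi1 by 1.03, Lmod1 by 1.28 and Usb1 by 1.66, and 11.6% of all probes were. On the side of small intestine it was 6 members and 15.7% of all probes, with Alpi gained (1.01, limma adjusted p 0.0332) and Dnpep lost. Without replicate 2 the counts were 3 in large intestine, against 2.77%, and 7 in small intestine, against 2.6%. The rule chose on both small intestine arrays and not on the remaining large intestine array, which favours the side of small intestine, so nothing is read from the 7. With slide as a fixed block, the comparison rests on the 1 pair of arrays that shared a slide, small intestine replicate 2 and large intestine replicate 1. This fit called 11 members higher in small intestine, against 3.19% of all probes, and 4 in large intestine, against 3.51%. The rule chose on the first array of this pair and not on the second, so the same holds for the 11. Gal3st2 (0.94) and Ccdc175 (-0.74) lost their call in it.

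**Figure D5:**
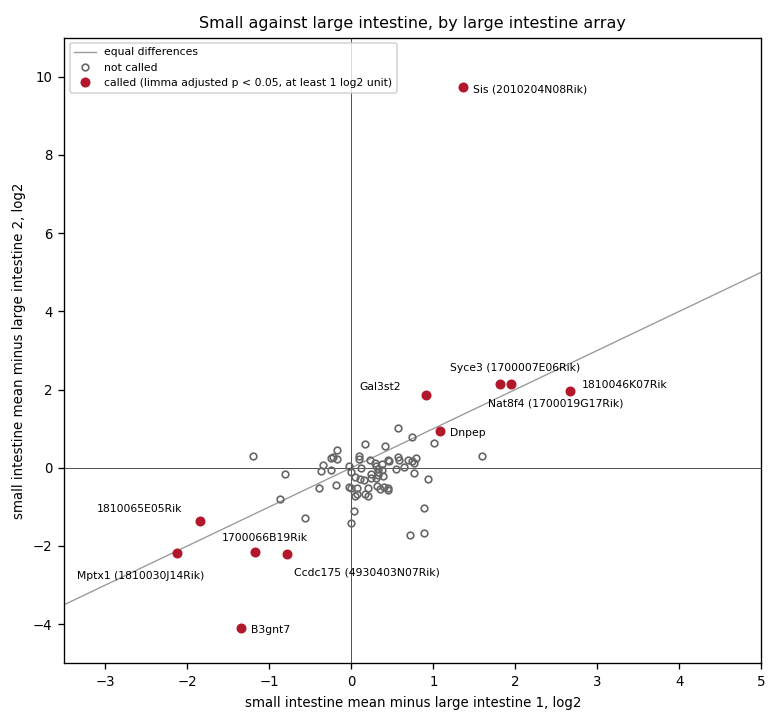
Difference of the small intestine mean from large intestine 1 (horizontal axis) and from large intestine 2 (vertical axis), in log2(tissue/reference), for the 80 members. Filled red points are the 11 called genes, open circles the others, and points on the grey line have equal differences. Sis and B3gnt7 lie furthest from the line.

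With Cy3 alone, quantile-normalised between arrays, several of these genes differed more. Here 8 members were called higher in small intestine, against 5.85% of all probes, and 7 higher in large intestine, against 5.35%. Of the 11 genes called with the ratios, 10 were called in the same direction with Cy3 and Dnpep was not. The RIKEN gene 1810065E05Rik had Cy3 values of 8.67 and 7.70 in small intestine and 16.73 and 14.87 in large intestine. Its difference was 7.62 in place of 1.59 (SE 0.38, limma adjusted p 9.02e-11), which is 196-fold in place of 3.02-fold. Mptx1 differed by 6.56 with Cy3 (SE 0.54, adjusted p 8.54e-08), 94.7-fold in place of 4.42-fold. Alpi, not called with the ratios of all arrays (0.79, adjusted p 0.078), had Cy3 values of 13.41 and 13.05 in small intestine and 10.50 and 9.30 in large intestine, and was higher in small intestine by 3.33 (SE 0.31, adjusted p 3.51e-07). Tm4sf20 was higher in small intestine by 1.73 and Chp2 by 1.38 with Cy3, with adjusted p of 0.00386 and 0.008 by limma, where the ratios gave 0.40 and 0.24. Chp2, Alpi and Tm4sf20 turned the other way with the processed signals described next. Cnnm4 and Lmod1 were higher in large intestine by 1.00 and 1.1 with Cy3 (adjusted p 0.00809 and 0.0197).

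The processed signals of the scanner software, taken as ratios, gave smaller differences for several of these genes. For Mptx1 they were 6.36, 6.74, 7.05 and 6.71 on the intestinal arrays, and the difference shrank to 0.33 in favour of large intestine (limma adjusted p 0.796). For 1810065E05Rik it shrank to 0.07 (adjusted p 0.949) and for Gal3st2 to 0.14 (adjusted p 0.893). The genes called with these ratios as well were Sis, Dnpep, B3gnt7, 1700066B19Rik and Ccdc175, 5 of the 11, each with Cy5 well above background on all 30 arrays. Syce3, with Cy5 above background on all 30 as well, differed by 2.31 but missed the threshold (adjusted p 0.056). Nat8f4, with Cy5 well above background on 3 arrays, differed by 1.26 in place of 2.04 and lost its call (limma adjusted p 0.121). The sizes of the differences of Mptx1, Gal3st2, 1810065E05Rik, 1810046K07Rik and Nat8f4 thus depended on how the reference channel entered. All but Nat8f4 also lost their call with the authors' value table. There small intestine differed from large by 0.05 in Gal3st2 (limma adjusted p 0.947), -0.09 in 1810065E05Rik (adjusted p 0.897), -0.54 in Mptx1 (adjusted p 0.641) and 0.81 in 1810046K07Rik (adjusted p 0.154). The small intestine differed from the large by -0.24 in Tm4sf20, -0.15 in Chp2 and -0.13 in Alpi with the processed signals, so that the direction of these 3 genes depended on the setting and none of the 3 was called (adjusted p 0.796, 0.887 and 0.9 by limma). The direction of Lmod1 turned as well, to 0.27.

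A second probe for a member's gene, not in the value table and so not used by the rule, was present on the array for 7 members. In 5 of them the second probe also had a gap above 0 on the log2 ratio scale. On the scale of the value table, 924 of all 25030 probes had one. The same RNA and arrays chose the members, so nothing is read from the 5. The correlation with the member probe over the 30 arrays ranged from 0.63 to 0.99 over the 7. For Slc52a3 the second probe gave 3.8, 3.56, 3.86 and 4.02 in the intestine against a mean of 2.99 in kidney. For Actb it gave 1.06, 1.25, 0.91 and 1.58 against a mean of 0.41 in bladder, a gap of 0.74 compared with 0.15 for the member probe. The highest other array, at 0.92, lay level with large intestine replicate 1. Ist1 (2400003C14Rik) and Ubald2 (1110014K08Rik) had gaps of 0.44 and 0.24. The exceptions were 2210016F16Rik and 2810408A11Rik. In 2210016F16Rik the second probe had 2.92 and 2.30 in small intestine but 0.95 and 0.66 in large intestine, near stomach at 0.98, and in 2810408A11Rik it had 1.07, 0.78, 0.28 and -0.11 with a mean of 0.49 in fat. These are different probes on the same RNA and arrays, not further animals.

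Lists of intestinal genes and of cell types that a piece of intestine could hold give the context of the members. Of 364 genes in 18 lists, 39 had a named probe in the table, 7 of them were members (Mptx1, Sis, Alpi, Gpa33, B3gnt7, Lmod1 and Elf3) and 31 others passed the filter. Of these 31, 17 were higher in intestine than in the mean of the other 13 tissues and 0 were lower, with a median difference of 1.19 compared with -0.10 over all probes (10.9% of all probes were higher). Vil1, Phgr1, Zg16, Pigr, Abcb1a and Ace had gaps between 0.0371 and 0.102, above 0 but under that of the last member, whereas those of Pls1 (-0.313) and Ugt1a6a (-0.554) were below 0. Pls1, another bundler of microvilli, had 4.83 and 5.29 in small intestine, 4.82 in large intestine replicate 1 and 2.59 in replicate 2, with 3.98 as the highest other array, so that its negative gap came from large intestine replicate 2 alone. Ugt1a6a was higher in liver. Vil1, an actin bundler of microvilli, had 5.09, 5.84, 5.61 and 5.12 and exceeded the other tissues by 4.81 (SE 0.20, limma adjusted p 4.79e-13), and kidney, which also has a brush border, reached 5.07. Phgr1 had 8.10, 8.75, 8.73 and 8.53 with stomach at 7.86, Zg16 (a goblet cell lectin) 3.85, 4.79, 4.70 and 3.98 with stomach at 4.22, and Pigr (the transporter of IgA into the lumen) 4.69, 4.72, 3.83 and 5.06 with liver at 3.55. Pls1 exceeded the other tissues by 3.62, the drug exporter Abcb1a by 3.09, the conjugating enzyme Ugt1a6a by 2.35 and the peptidase Ace by 1.22.

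Of the same 31 genes, 7 were higher in small intestine, against 6.33% of all probes, and 3 in large intestine, against 5.04%. Lct, lactase, had 4.61 and 5.47 in small intestine and 0.64 and 0.83 in large intestine (and 3.82 in cortex), a difference of 4.30 (SE 0.48, limma adjusted p 5.45e-06). Dgat1, which completes triglyceride synthesis, was higher in small intestine by 1.72 (adjusted p 0.000306), and the nuclear receptor Nr1i3 by 3.22 (adjusted p 3.15e-11). Higher in large intestine were Plet1, by 5.61 (adjusted p 0.000138), and Nos1, the synthase of nitric oxide in enteric neurons, by 2.10 (adjusted p 0.000471). Both large intestine arrays read alike for Lct, Plet1 (6.10 and 5.83) and Nos1 (0.84 and 1.25). They did not for Cps1, the first enzyme of the urea cycle, which is made in liver and small intestine and had 7.0 and 6.66 in small intestine, 4.34 in large intestine replicate 1 and -0.14 in replicate 2, nor for the exporter Abcg2, with 2.45, 2.14, 2.36 and -1.51, nor for Pls1. Large intestine replicate 1 thus carried Plet1 at about the level of replicate 2, and Sis and Cps1 nearer to the level of small intestine.

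Markers of neighbouring organs gave unlike values. The trypsin Try5 of exocrine pancreas had 3.53 in small intestine replicate 1 and -0.07, -0.19 and 0.27 on the other intestinal arrays, with stomach at 4.46, and the amylase Amy2a5 was not well above background on any of the 4. Gkn3, a gastrokine of stomach, had 2.23 and 2.86 in small intestine and 0.29 and 0.27 in large intestine against 4.62 in stomach. Ctse, a protease of gastric cells, had 2.14, 1.86, 1.64 and 2.02 with a mean of 3.31 in stomach, and was higher in intestine than in the other tissues by 1.21 (limma adjusted p 0.00929). The hepatocyte gene Otc, of the urea cycle, had 1.81, 1.54, 0.89 and 0.70 with a mean of 3.61 in liver. Serpinc1, another, was well above background on 1 intestinal array, with ratios between 0.06 and 0.47. Fev, of enteroendocrine cells, did not exceed 0.53. The part of neighbouring tissue in the members' values was not tested.

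For 56 members a RefSeq promoter window (250 bases before to 50 after the start) was found. The letters TATAAA were present in 12 of them (21.4%), compared with 15.7% of 27025 genes with a window and 9.86% of the 4148 genes named in the value table. CDX letters (TTTATNG) were in 9 (16.1%, compared with 12.5% and 9.59%), and in 6 member windows a CDX match overlapped a TATA box, since the letters are shared. HNF1 letters were in 2 members (3.57%, compared with 0.470% and 0.530%) and HNF4 letters in 1 (1.79%, compared with 0.555% and 0.313%). GATA letters (AGATAA) were in 4 (7.14%, compared with 12.7% and 8.78%), and those of the KLF motif (CCACACCC) in 2 (3.57%, compared with 4.09% and 4.29%). All were searched on both strands. A match is a description of letters, and no match says only that these letters are not in the window.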

How the data were processed

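Tissue RNA (Cy3) and a common reference (Cy5) were hybridised on 30 two-colour Agilent 60-base arrays, without dye swap. The authors deposited scanner files of intensity values for each array (Agilent Feature Extraction 9.5.1.1, per the file headers). The authors' value table gives log10 levels. Over 11667 bright probes these matched log10 of the processed Cy3 signal less the deviation of Cy5 (slopes 0.998 and -0.997). Members were taken from that table by the stated rule. Members, roles and gene lists were chosen with earlier results of these data known.

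Mean signals were background-corrected with normexp (offset 50, median local background), control and outlier spots were dropped (475 outlier spots over all arrays, 0.0377%), ratios were loess-normalised within arrays and spots of a probe were averaged. No spot was saturated. The table's 25030 probes were filtered to 21026 (84%), which needed both arrays of some tissue to have Cy3 well above background. limma 3.58.1 in R 4.3.3 fitted 1 coefficient per tissue over all arrays (residual df 15, prior df 2.95). Tests were two-sided with Benjamini-Hochberg adjustment over all probes tested. The fit was tested on simulated data. Only 2 arrays per tissue limit the precision.

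For the single-channel values, log2 Cy3 was quantile-normalised between arrays, and log2 Cy5 was centred on the median of each array. Of the 80 symbols, 49 were current in RefSeq (GRCm38.p6), 26 were synonyms and 5 were in neither. Named genes were the 10 largest gaps, the 3 genes on each side of the limit and the 5 largest called differences in each direction. Further ones were the 3 largest differences between the large intestine arrays in each direction and the 5 smallest separations on the 3 arrays of the rule. Members in a list and up to 3 other genes per list were named as well. Other members were named by role after their values were seen. Alternatives were other normalisations, filters, blocks, the value table, Cy3 alone and leaving out arrays. A few genes are not reported here.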

Additional observations from a re-analysis of the deposited data

How the results depend on the processing

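The number of members called higher in small intestine (6) and in large intestine (5) was small, so shifts of a few genes count. Higher in small intestine were 2 with the processed signals (7.41% of all probes), 11 when slide was a fixed block, which leaves 1 pair of arrays, and 0 when the 4 intestinal arrays were fitted alone. Higher in large intestine were 3 with the processed signals (6.37% of all probes), 3 with the authors' value table (6.8%), 1 with array weights per tissue (1.13%) and 0 with the 4 arrays alone. In the limma fit of 4 arrays alone 10 members had an unadjusted p under 0.05, and the lowest adjusted p was 0.111. Leaving out 1 intestinal array gave 4 to 7 members higher in small intestine and 3 to 10 higher in large intestine. The shares of all probes ranged from 2.6% (without large intestine replicate 2) to 15.7% (without replicate 1) and from 2.7% (without small intestine replicate 1) to 11.6% (without large intestine replicate 1). Sis lost its call with scan day as a fixed block (2.86, limma adjusted p 0.105).

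Usb1 (AA960436) and Gm6194 (1700003N22Rik), not called in the setting reported, were called higher in small intestine by 1.76 and 1.84 with slide as a fixed block, where the direction was reversed. In the other values that reversed, no call was made. Usb1 and Gm6194 were 0.66 and 0.68 when slide was a random block, 0.80 and 0.73 when scan day was a fixed block and 0.42 and 0.33 when it was a random one. In the same order of these 4 blocks, 1810058N15Rik was 0.30, 0.11, 0.08 and 0.04, and Tnfsf13os 0.60, 0.25, 0.18 and 0.10. Gpa33 was 0.54, 0.01 and 0.04 with the first 3 and Elf3 0.39 with slide fixed. With the processed signals 1810058N15Rik was 0.62, Lmod1 0.27, Alpi -0.13 and Tm4sf20 -0.24, and with the authors' values 0.39, 0.21, -0.20 and -0.26. 1810058N15Rik was also 0.07 with median centring and 0.03 with a normexp offset of 16. Leaving out 1 array gave -1.66 to 0.88 for Usb1, -1.73 to 0.71 for Gm6194, -0.50 to 0.40 for 1810058N15Rik, -0.58 to 0.45 for Tnfsf13os, -0.13 to 0.02 for Bnip5, -0.69 to 0.16 for Elf3, -0.72 to 0.20 for Gpa33 and -1.20 to 0.31 for Rgs1. The cause was not tested.

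The replicate numbers were not shown to pair the arrays. The differences between replicates 1 and 2 correlated over 0.1 in 33 of 105 pairs of tissues (range -0.25 to 0.34, 0.19 for small and large intestine), and with the replicate block the counts were again 6 and 5. Large intestine replicate 1 was above all other arrays for 43 members with median centring and for 65 with the processed signals. The count lay between 59 and 62 when 1 fat, stomach or bone array was left out. Shares of all probes in these settings are not given here, so nothing is read from the changes. Other versions of the rule kept 67 to 77 of the 80 members, 71 with both large intestine columns and 68 with log2 ratios. The count of 17 list genes higher in intestine lay between 12 and 21, in settings chosen after seeing the data. Dim signal limits Gpr35, Gpr39, 1700084E18Rik and Sis in large intestine replicate 2, and 2 arrays per tissue limit all else.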
